A study of Mus musculus with 2 samples.

Results

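Transcripts of 9 liver enzymes that break down amino acids were compared between 1 pooled library of Pgrmc1 KO liver and 1 pooled library of WT liver. The 9 genes, Tat, Hpd, Hgd, Fah, Tdo2, Kmo, Sds, Hal and Prodh, were chosen by symbol as hepatic enzymes of tyrosine, tryptophan, serine, histidine and proline breakdown, and all 9 were found among the 24054 genes of the deposited TPM table. Both pools were made from male C57BL/6 mice of 8 to 12 weeks, with equal RNA masses (2.5 μg) per mouse. The KO mice (Pgrmc1 -/Y) lacked exons 1 and 2 of Pgrmc1, an X-linked gene for a heme-binding membrane protein, in the whole body and so not in hepatocytes alone, since the floxed allele, made in C57BL/6N cells, had been deleted with Sox2-Cre, which acts in the early embryo. The WT group is described by its genotype alone, and the Cre status of the controls is not given in the sources used here. Because the mice were pooled before sequencing, each genotype has 1 library, variation from mouse to mouse could not be seen, and the differences below carry neither a replicate check nor a p-value.

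The liver is the main site where dietary amino acids in excess of need are degraded. Each pathway opens with a committed enzyme, such as Tat for tyrosine, Tdo2 for tryptophan or Hal for histidine, and ends in fragments that feed the citric acid cycle, glucose or ketone body synthesis, while the nitrogen passes to the urea cycle. Tat, Tdo2 and Sds are classical hormone-responsive liver genes, induced by glucocorticoids and, for Tat and Sds, by glucagon. Several of these enzymes carry iron. Tdo2 is a heme dioxygenase, and Hpd and Hgd are non-heme iron dioxygenases.

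Sds had the lowest change of the 9, with KO at 0.703 of its WT level, followed by Tdo2 at 0.799 and Tat at 0.825, while Hpd, Kmo and Fah lay within 0.05 of no change on the log2 scale. Levels are given as TPM, each gene's share of the transcript pool corrected for its length, and changes as log2((KO TPM + 1)/(WT TPM + 1)). Of the 9 enzymes, 7 lay below 0 and 2 above. Among all genes averaging 1 TPM or more, 53.8% lay below 0, and among those averaging 100 TPM or more, 50.1%. The study's fold limit, a change of 40%, was read here as at least 1.4 for a rise and at most 0.6 for a fall on the TPM + 1 scale, and its limit on the probability of a difference was not applied. Under this fold rule, 0 of the 9 passed upward and 0 downward. Among all 11623 genes averaging 1 TPM or more, 1.21% passed upward and 0.301% downward. With falls counted from 1/1.4, as far from 1 as the rise, 1 of the 9 passed, Sds, against 1.02% of all genes. With limits of a 25% rise or a 20% fall, 0 passed upward and 2 downward, Sds and Tdo2, against 3.3% and 3.4% of all genes. Tdo2, at 0.799, was only just past the limit. The differences described here are therefore small, and they were read against counting error because no other error can be had from these files.

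The level of Pgrmc1 followed the genotypes on the labels, at 0.68 TPM in KO against 949 in WT. The authors' means (size-factor scaled read estimates) correspond to 22086692 reads on genes in KO and 29710419 in WT, and the 9 enzymes rest on 2352 to 72373 estimated reads each. Counting intervals are 95% Clopper-Pearson intervals of the log2 ratio of these means, and they say nothing of how mice vary. On the TPM scale the change of each enzyme differed from that on the scale of these means by between -0.018 and -0.012, so a change can lie near the lower end of its interval. Pan-hepatocyte transcripts were high in both pools, with Alb at 47242 TPM in KO against 49729 in WT, and markers of kidney epithelium, where some of these enzymes also occur, did not exceed 0.23 TPM. In bulk RNA, fewer cells of a type and less RNA per cell cannot be told apart.

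The genes lie on 7 chromosomes of GRCm38 (mm10), by RefSeq. Tat (Entrez 234724) spans 109986078 to 109999804 of chromosome 8, Tdo2 (56720) 81958412 to 81975728 of chromosome 3, and Sds (231691) 120476547 to 120483932 of chromosome 5. Hpd (15445) is also on chromosome 5, at 123171807 to 123182723. Hgd (15233) and Prodh (19125) share chromosome 16, at 37579742 to 37632026 and 18071726 to 18089283. Fah (14085) lies at 84585159 to 84605942 of chromosome 7, Kmo (98256) at 175632193 to 175660853 of chromosome 1, and Hal (15109) at 93488768 to 93516761 of chromosome 10. In GENCODE transcripts, 0% of the 100-base windows of any of the 9 genes recur exactly, on the sense strand, in another gene. Copies with mismatches in each window were not searched for, so whether such copies share reads was not tested. Exons of Sds overlap exons of Plbd2 and Gm15690 on the other strand. The library kit keeps strand, but the strand setting used in counting is not given in the sources used here. Plbd2, at 23.8 TPM in KO against 21.5 in WT, was higher in KO where Sds was lower (log2 change 0.14, interval 0.05 to 0.27).

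The promoters of Tat and Tdo2, abundant enzymes that were each lower in KO, are shown beside that of Hpd, which acts directly after Tat and was not lower. These genes were picked by their values, and a link between motifs and changes was not tested. Each run gives the 250 bases before the RefSeq start on GRCm38.p6, 5′ to 3′ on the gene's strand, with matches to CCAAT or TATAAA on either strand in capitals. The Tat window is chr8:109990186-109990435 on the plus strand, next to a start that lies inside the longer RefSeq gene span. The Tdo2 window is chr3:81975729-81975978 and the Hpd window chr5:123182724-123182973, both on the minus strand.
Tat: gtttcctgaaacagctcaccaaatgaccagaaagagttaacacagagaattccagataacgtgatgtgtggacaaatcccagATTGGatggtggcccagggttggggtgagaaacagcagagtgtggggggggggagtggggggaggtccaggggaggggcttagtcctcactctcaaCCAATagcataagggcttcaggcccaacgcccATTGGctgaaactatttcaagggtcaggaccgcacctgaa
Tdo2: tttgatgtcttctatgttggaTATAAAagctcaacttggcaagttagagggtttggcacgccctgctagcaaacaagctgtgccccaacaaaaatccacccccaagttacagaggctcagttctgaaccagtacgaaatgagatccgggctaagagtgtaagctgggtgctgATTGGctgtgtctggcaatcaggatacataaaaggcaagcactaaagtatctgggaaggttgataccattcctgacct
Hpd: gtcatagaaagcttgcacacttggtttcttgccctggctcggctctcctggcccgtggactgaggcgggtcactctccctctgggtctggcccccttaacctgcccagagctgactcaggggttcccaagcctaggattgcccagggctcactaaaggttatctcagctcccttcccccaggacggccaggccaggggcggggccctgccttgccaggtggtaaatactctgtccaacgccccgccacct

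Tat has 3 CCAAT matches in this window, at bases -168 to -164, -72 to -68 and -40 to -36 from the start, Tdo2 has 1 at -78 to -74 and 1 TATAAA match at -229 to -224, and Hpd has neither. Promoters of 8 of the 9 genes were in the RefSeq table. That of Sds, which had the lowest change of the 9, was not, so the motif counts leave it out. Of these 8, 4 hold CCAAT (Tat, Tdo2, Hgd and Hal) and 3 hold TATAAA (Tdo2, Hgd and Hal). Among all 32851 promoter windows of the same length, 33.8% and 12.4% do. Among the other motifs searched on both strands, these matched none of the 8 windows: TGTTCT (a glucocorticoid receptor core site, in 16.1% of all windows), TGACGTCA (a cAMP response element, 1.55%), TGTTTAC (a forkhead site, 3.17%), TTGCGCAA (a C/EBP site, 0.164%) and CAAAGTCCA (an HNF4 site, 0.384%). No motif match overlapped another in the 3 printed windows. A missing match says only that these letters are not in this window.

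Tyrosine breakdown opens with Tat, the transaminase that makes 4-hydroxyphenylpyruvate. Tat stood at 1435 TPM in KO against 1739 in WT, which is -0.28 on the log2 scale (counting interval -0.28 to -0.25). Of the 1013 abundant genes (mean of 100 TPM or more), 3.16% had as low a change. The next enzyme, the dioxygenase Hpd, which makes homogentisate, stood at 1653 TPM in KO against 1602 in WT, which is a change of 0.05 (0.04 to 0.09). Neighbouring steps of the same pathway therefore differed in sign, and their intervals do not overlap. Hgd, the dioxygenase that opens the ring of homogentisate, was at 463 TPM in KO against 502 in WT, which is a change of -0.11 (-0.14 to -0.06). Fah, the hydrolase of the last step, which yields fumarate and acetoacetate, was at 464.5 TPM in KO against 473 in WT, which is a change of -0.03 with an interval (-0.05 to 0.03) that holds 0. Tat alone of these 4 lay outside the 5th to 95th percentile range of the abundant genes, which ran from -0.20 to 0.22.

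Tryptophan breakdown showed the same contrast between its opening enzyme and a later one. Tdo2, the heme dioxygenase that opens the indole ring of tryptophan, stood at 1453 TPM in KO against 1819.5 in WT, which is -0.32 on the log2 scale (-0.33 to -0.29). Of the abundant genes, 2.57% had as low a change. Kmo, the flavoenzyme of the outer mitochondrial membrane that hydroxylates kynurenine, was at 195 TPM in KO against 190.4 in WT, which is a change of 0.03 (-0.002 to 0.09). Its interval holds 0, and it does not overlap that of Tdo2.

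Sds, the dehydratase that turns serine into pyruvate and ammonia, was at 168 TPM in KO against 239 in WT, which is -0.51 on the log2 scale (-0.56 to -0.42). Its fold of 0.703 did not reach 0.6, and 1.28% of the abundant genes had as low a change. It rests on 2352 estimated reads in KO and 4464 in WT, the fewest of the 9 in KO. Hal, the ammonia lyase that makes urocanate from histidine, was at 135 TPM in KO against 151 in WT, which is a change of -0.16 (-0.20 to -0.09). Prodh, the proline dehydrogenase of the inner mitochondrial membrane, was at 99.97 TPM in KO against 105 in WT, which is a change of -0.07 with an interval (-0.13 to 0.01) that holds 0. The changes of Hal and Prodh lay inside the 5th to 95th percentile range of the abundant genes.

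**Figure D1:**
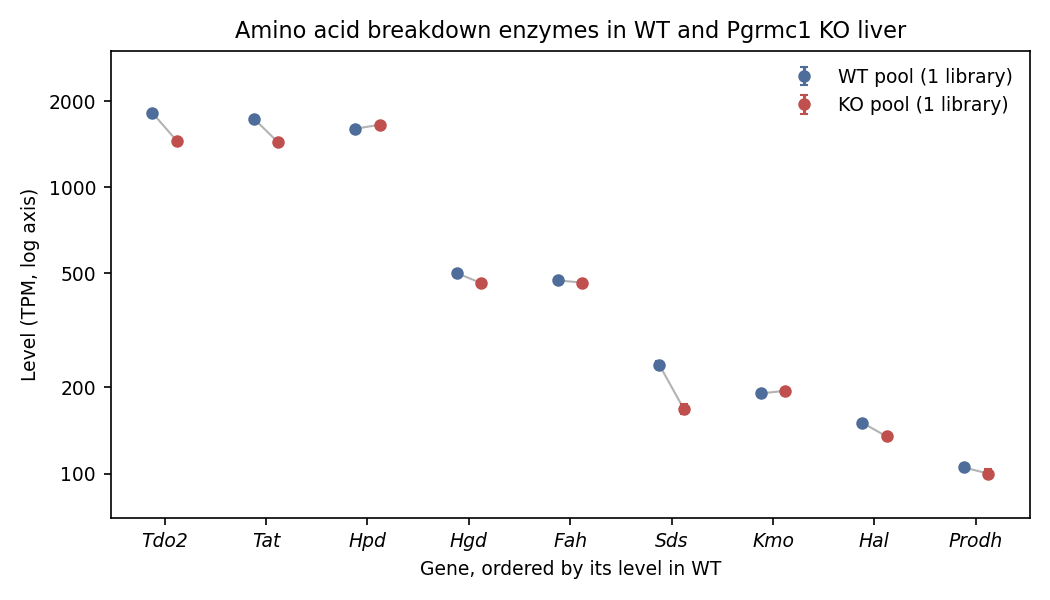
Level in TPM (log axis) of each of the 9 enzymes in the WT pool (blue) and the KO pool (red), ordered by the WT level, with 95% Poisson intervals of counting error, most of them smaller than the points. The lines for Tdo2, Tat and Sds slope down from WT to KO, from 1819.5 to 1453, 1739 to 1435 and 239 to 168 TPM, while those for Hpd and Kmo rise slightly.

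Counting intervals lay below 0 for 5 of the 9 enzymes (Tat, Tdo2, Sds, Hal and Hgd) and above 0 for 1 (Hpd), and held 0 for the other 3. Intervals are narrow at these depths. Of the 1013 abundant genes, 24.1% had an interval below 0 and 35% one above 0. The median change of the 9 enzymes was -0.11, against -0.01 over the 11623 genes tested and about 0 (-0.0005) over the abundant genes. Of all 11623 genes 53.8% lay below 0. Without Tat, Tdo2 and Sds in turn, the median was -0.09 each time, and without Hpd it was -0.14.

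**Figure D2:**
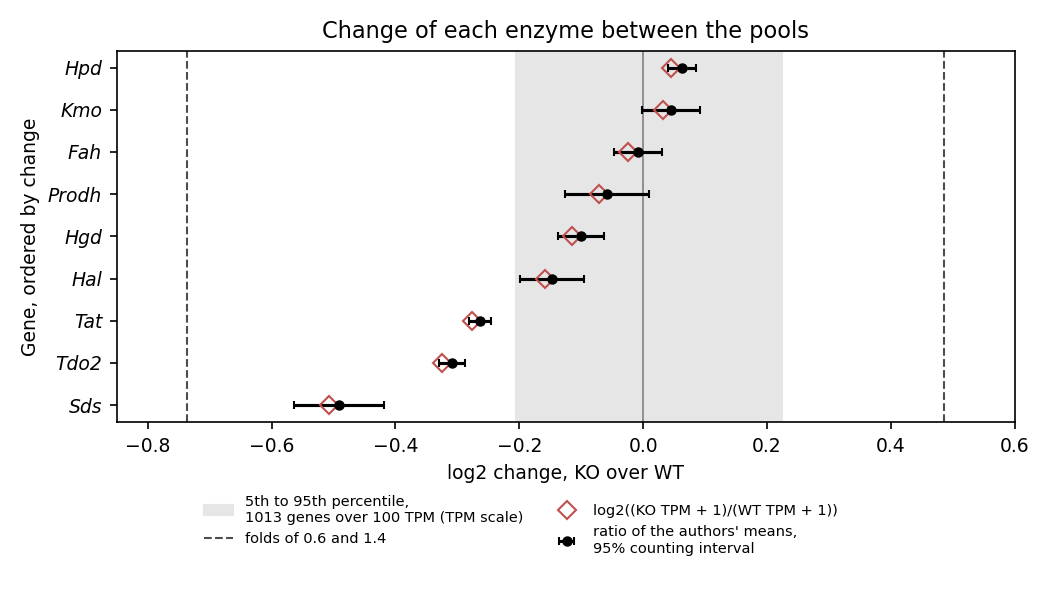
log2 change of each enzyme between the KO and WT pools, as the ratio of the authors' means with its 95% counting interval (black) and on the TPM scale (red diamonds), over the grey 5th to 95th percentile range of 1013 abundant genes. Sds, Tdo2 and Tat lie left of the grey range at -0.51, -0.32 and -0.28 on the TPM scale, and all 9 lie between the dashed fold limits of 0.6 and 1.4.

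Together the 9 enzymes made up 6066 TPM in KO against 6820 in WT, or 0.889 of the WT sum. The difference of 754 TPM is net of the small rises of Hpd and Kmo. The falls of Tat and Tdo2, 670.2 TPM together, equal 88.9% of this net difference. Tat and Tdo2 were the most abundant enzymes among those that were lower. The other 7 summed to 3178 TPM in KO against 3262 in WT. TPM is corrected for length, so levels can be ordered between genes. In WT the order was Tdo2, Tat, Hpd, Hgd, Fah, Sds, Kmo, Hal and Prodh, and the counting intervals of no neighbouring pair overlapped. In KO, Hpd stood first, ahead of Tdo2 and Tat, whose intervals overlapped each other, as did those of Fah and Hgd. Kmo was above Sds in KO and below it in WT. Among all genes, Tdo2 ranked 64th by level in WT and 79th in KO, and Tat 67th and 80th. Sds went from rank 471 to rank 663.

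Other enzymes of the same pathways were taken from lists written from general knowledge. Of phenylalanine and tyrosine enzymes, 0 of 5 passed the fold rule in either direction, with a median of -0.06. Pcbd1, which regenerates a pterin cofactor, was highest at 0.05, and Gstz1, the isomerase before Fah, was at 0.04. Gstz1 was thus slightly higher in KO, as was Hpd, whereas Tat was lower.

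Of 10 tryptophan enzymes, 0 passed the rule, 6 lay above 0 and the median was 0.02. Acmsd, which steers the pathway away from NAD synthesis, was lowest at -0.48, at 13.2 TPM in KO against 18.8 in WT (interval -0.67 to -0.32). Aadat, an aminotransferase that acts on kynurenine and on a lysine product, was highest at 0.31, at 114 TPM in KO against 92.1 in WT. The formamidase Afmid and the hydrolase Kynu, which act between Tdo2 and the NAD branch, changed by 0.12 and 0.02. Haao, the dioxygenase before Acmsd, changed by -0.11. The values along this path were therefore low at Tdo2 and at Acmsd and near 0 or above it for Afmid, Kmo and Kynu.

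Of the 12 serine, glycine and threonine enzymes above the 1 TPM limit, 0 passed the rule and 7 lay above 0, with a median of 0.02. Sdsl, the close homolog of Sds, was lowest at -0.41, at 8.47 TPM in KO against 11.6 in WT (interval -0.77 to -0.11). Next to Sds its transcript is scarce. Amt, of the glycine cleavage system, was highest at 0.13. Of the enzymes that make glycine from serine, Shmt1 changed by 0.13 (interval 0.07 to 0.22) and Shmt2 by -0.02 (-0.08 to 0.06), and the serine racemase Srr changed by -0.06 (-0.14 to 0.03).

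The histidine list without Hal had 4 genes, with 0 past the rule and a median of -0.07. Uroc1, the urocanase that follows Hal, stood at 163 TPM in both pools (change 0.0002), while Ftcd, which passes the last carbon unit to folate, changed by -0.11. Hdc, which makes histamine in other cell types and is scarce here at 0.82 and 1.23 TPM, was lowest at -0.29 with an interval that holds 0. For proline, hydroxyproline and ornithine, 5 of 5 genes lay above 0 and 0 passed the rule, with a median of 0.06, from 0.03 for Hoga1 to 0.12 for Grhpr. Aldh4a1, the dehydrogenase that follows Prodh, changed by 0.06 (interval 0.03 to 0.12), the opposite sign to Prodh. Among 7 shared transaminases and glutamate enzymes, 0 passed the rule, with a median of -0.003. Gls2, the liver glutaminase, was lowest at -0.17 and Asrgl1, an asparaginase, highest at 0.25.

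**Figure D3:**
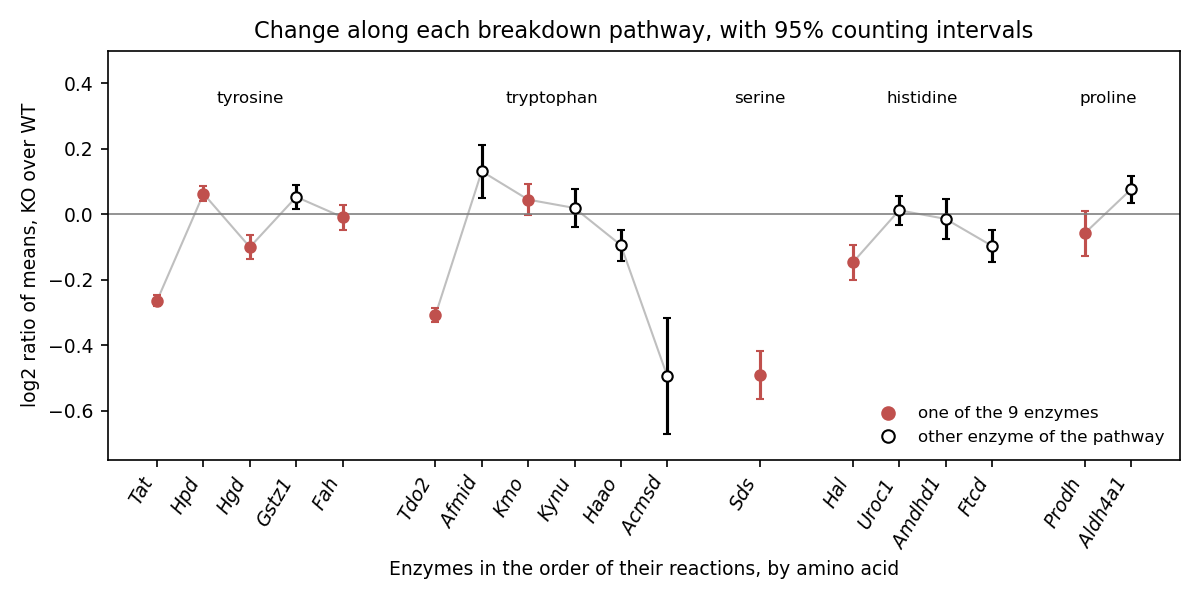
log2 ratio of the authors' means (KO over WT, y axis) with 95% counting intervals for enzymes in the order of their reactions (x axis), grouped by amino acid, with the 9 enzymes in red and other enzymes of the same pathways as open circles. The opening enzymes Tat, Tdo2, Sds and Hal lie below 0, as does Prodh with an interval that holds 0. The following steps lie on both sides of 0, from -0.49 for Acmsd, at the end of the tryptophan path, to 0.13 for Afmid. Several of their intervals leave out 0, among them those of Hgd, Haao and Ftcd below it and Hpd and Afmid above it.

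Among the enzymes drawn by step, the opening enzyme was the lowest for tyrosine (Tat), histidine (Hal) and proline (Prodh, with an interval that holds 0). The interval of Hal (-0.20 to -0.09) overlaps that of Ftcd (-0.14 to -0.05), and Aldh4a1 is the only other proline step drawn. For tryptophan, Tdo2 was the lowest but for Acmsd, and their intervals overlap. This grouping by step was made after the values were seen and is a description. It does not extend to all opening enzymes. Mat1a, which opens methionine breakdown, changed by 0.11, and Bcat2, the first transaminase of the branched-chain amino acids, by 0.31 at 8.52 TPM in KO.

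Because Tat, Tdo2 and Sds respond to hormones, transcripts of hormone responses were set beside them. Of 12 glucocorticoid-responsive genes, 5 passed the rule upward and 0 downward, against 1.21% and 0.301% of all genes averaging 1 TPM or more. Their median was -0.04. The genes up were Mt2 (1.38), Lcn2 (1.10), Mt1 (0.96), Sgk1 (0.77) and Pdk4 (0.50), of which the metallothioneins Mt1 and Mt2 and the lipocalin Lcn2 also belong to the acute phase response. Fkbp5, the immunophilin that binds the glucocorticoid receptor complex, was lowest at -0.53 (34.9 TPM in KO against 50.6 in WT, interval -0.61 to -0.44). Zbtb16 (-0.38) and Dusp1 (-0.33) were also lower. Per1 changed by -0.16, and Angptl4 (-0.09), Tsc22d3 (-0.07) and Errfi1 (-0.02) changed less. The list thus went both ways, with 5 genes above 0 and 7 below. Its lowest genes, Fkbp5, Zbtb16 and Dusp1, changed in the direction of Tat, Tdo2 and Sds. Its 5 highest, which alone passed the rule, changed in the other direction.

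Of the 11 genes of the glucagon and cAMP response above the 1 TPM limit, 3 passed the rule upward and 0 downward, against 1.21% and 0.301% of all genes. Their median was 0.10. The genes up were Igfbp1 (1.15), Sik1 (1.14) and G6pc (1.12), the last being the phosphatase that releases glucose. The list went both ways, with 6 genes above 0 and 5 below. Fgf21, a fasting hormone, was lowest at -0.73 on 31 and 79 estimated reads (interval -1.56 to -0.30). Its ratio of the authors' means was -0.92, which is past the 0.6 limit. Ppargc1a changed by -0.30 (-0.52 to -0.18). Pck1, the gluconeogenic enzyme usually induced with Tat and Sds, changed by -0.21 (2204 TPM in KO against 2551 in WT). Among 15 hormone receptors and hepatic transcription factors, 0 passed the rule and the median was -0.02, with Foxa2, a forkhead factor, lowest at -0.48. The glucocorticoid receptor Nr3c1 (-0.04, interval -0.10 to 0.04) had an interval that holds 0, and the glucagon receptor Gcgr was at 0.10 (0.06 to 0.18). The part of hormone state in the levels of Tat, Tdo2 and Sds was not tested.

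Sds, Hal and Gls2 are known as transcripts of periportal hepatocytes. Of 14 periportal markers that are not among the 9 enzymes, 0 passed the rule, 11 lay below 0 and the median was -0.10, from -0.51 for Apoa4 to 0.08 for Ctsc. Their summed level was 7643 TPM in KO against 8479 in WT. Of 14 pericentral markers, 13 lay above 0, 2 passed upward (Tbx3 at 0.78 and Rhbg at 0.49), 0 passed downward and the median was 0.14, with Cyp27a1 lowest at -0.11. Their summed level was 10444 TPM in KO against 9360.0 in WT. Clock transcripts were grouped by the time at which they peak. Of 6 genes that peak near dawn 6 lay above 0, with a median of 0.32, from 0.03 for Clock to 0.60 for Arntl, and 2 passed the rule upward (Arntl and Npas2, at 0.52). Of the 8 that peak near dusk and are above the 1 TPM limit, 8 lay below 0 with a median of -0.36, from -0.57 for Ciart to -0.07 for Per2, and 0 passed. Over all genes above that limit, 1.21% passed upward and 0.301% downward. Tat is known to follow the daily rhythm of feeding and glucocorticoids. The part of lobular zone or time of day in the values of Sds, Hal, Tat and Tdo2 was not tested, and with 1 pool per genotype these cannot be told apart from genotype.

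Markers of other cell types were compared in the same way. Of 7 pan-hepatocyte genes, 4 lay above 0, 0 passed the rule and the median was 0.02, from -0.09 for Ttr to 0.09 for Fgb, with a summed level of 83779 TPM in KO against 85998 in WT. Markers of Kupffer cells and macrophages, which can also use Kmo, had 8 of 9 above 0 and a median of 0.16, from -0.26 for Cd68 to 0.24 for C1qa, with sums of 300.4 TPM in KO against 266 in WT. Endothelial markers had 0 of 8 above 0 and a median of -0.10, from -0.60 for Lyve1 to -0.04 for Stab2, with sums of 194 and 214 TPM. Stellate and mural markers had 2 of 8 above 0 and a median of -0.18, from -0.53 for Rgs5 to 0.17 for Lrat, with sums of 184 and 211 TPM. Cholangiocyte markers had 1 of 4 above 0 and a median of -0.12, from -0.59 for Epcam to 0.01 for Krt19, with sums of 62.0 and 67.0 TPM. None of these 5 lists had a gene past the rule. Of the pancreatic acinar list, Cela1 alone reached a mean of 1 TPM, at -0.04, with sums of 14.3 and 14.6 TPM, and the kidney list summed to 0.60 and 0.46 TPM. The part of these cell types in the values of the 9 enzymes was not tested.

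**Figure D4:**
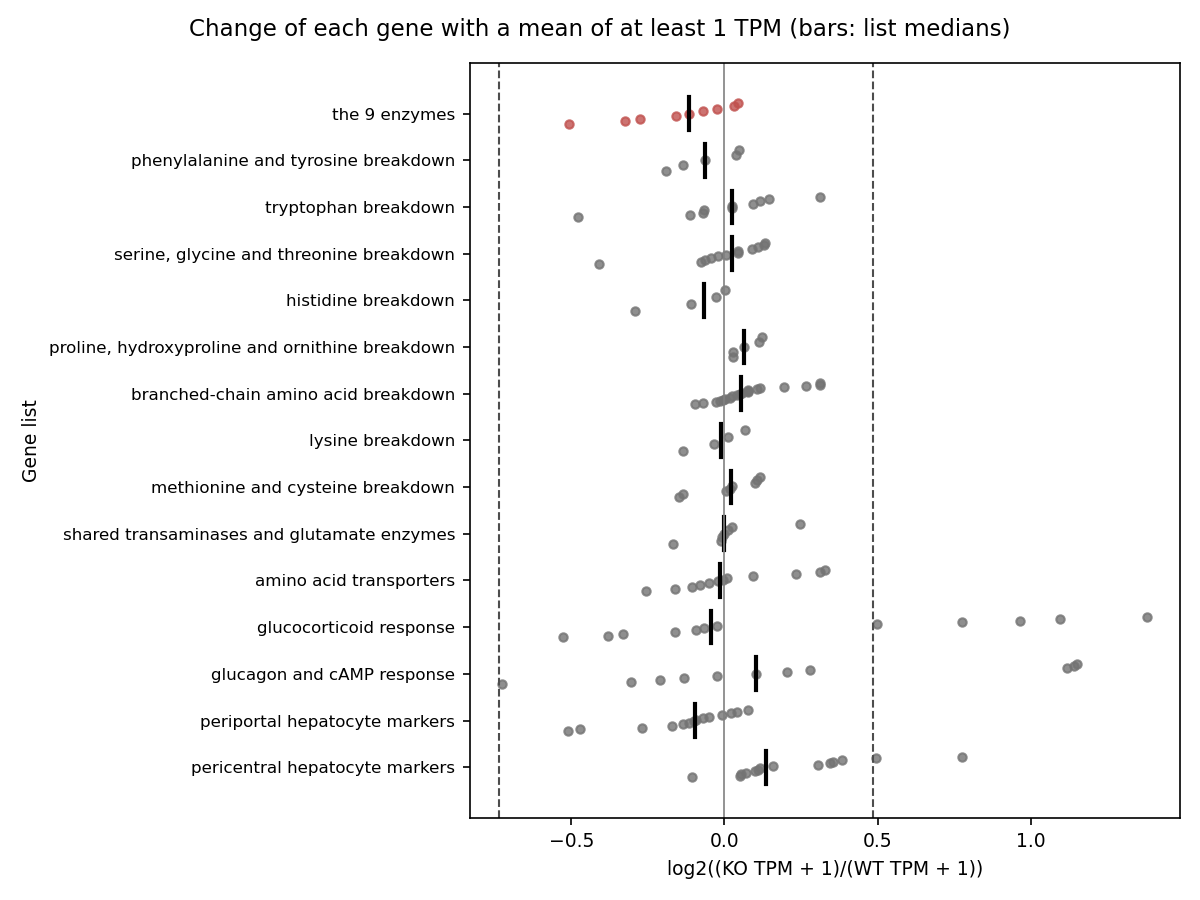
log2 change (x axis) of every gene averaging 1 TPM or more in the 9 enzymes (red) and in lists of related genes (grey), 1 row per list, with black bars at the medians and dashed lines at folds of 0.6 and 1.4. The median of the 9 enzymes lies at -0.11 and that of the periportal markers at -0.10, and no gene of the amino acid lists passes the dashed lines.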

How the data were processed

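Liver RNA of male mice was pooled by genotype, and 1 KO and 1 WT library were sequenced with a stranded total RNA kit. Per the paper's methods and the submitters' processing notes, the authors converted reads with CASAVA 1.8.2 and ran RSEM 1.2.09 with Bowtie on mm10. They deposited posterior mean TPM for 24054 genes, rescaled between libraries, and, for 16318 genes, an EBSeq signal (the authors' mean: estimated reads divided by a size factor). The deposited fold ratio and the other columns of the authors' own comparison (posterior probabilities and fold changes) were not used. The genotype of the signal columns was taken from the study's supplementary transcriptome table, which prints the same values by genotype.

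The most frequent signal value (1.16 in KO, 0.860 in WT) was taken as 1 read. Within 0.02 reads, 78.4% and 75.0% of values above 0 were whole, too few for a test on counts. From TPM, log2 changes were computed with a pseudocount of 1 TPM, which understates changes of low genes. Intervals (95%, Clopper-Pearson for ratios, exact Poisson for levels) used rounded estimated reads. Genes named are the 9 enzymes, Pgrmc1, and in each list every gene past the fold rule and the highest and lowest with a mean of at least 1 TPM. Some of these genes are not reported here. Other genes named were chosen after their values were seen, as were the limit of 100 TPM, the order of steps, the motifs and the printed promoters. The members and lists were chosen with earlier results of these data known. Alternatives were another pseudocount, the authors' means, 2 scalings, other folds and filters, and leaving out each enzyme. The scripts ran in Python 3.11.15 with scipy 1.17.1, numpy 2.4.6, matplotlib 3.10.9 and pandas 2.3.3.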

Additional observations from a re-analysis of the deposited data

How the results depend on the processing

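No paired analysis was possible because the mice were pooled, leaving 1 library for KO and 1 for WT. Over 36 values of the 9 enzymes under centring on the median gene, a pseudocount of 0.1 TPM, the authors' means and rescaling without the 50 most abundant genes, 0 changed sign and 0 moved beyond counting error. These scalings left the median gene between -0.01 and 0 and so put the values to little test. The count of enzymes that were lower by the rule, 0, became 1 with falls at 1/1.4 and 2 with limits of 25% up and 20% down, as looser limits imply. Of these 2, Tdo2 passed narrowly at -0.324. Its changes of -0.308 with the authors' means and -0.311 after centring did not reach the 20% limit. For the other amino acid genes, 1 passed upward with limits of 25% up and 20% down (Slc43a1), 1 with 0.1 TPM and 1 with the authors' means (Slc7a8 in both), and 2 passed downward with limits of 25% up and 20% down (Acmsd and Sdsl). The log2 ratio of the summed enzymes, -0.17, was -0.16 after centring and ran from -0.24 without Hpd to -0.12 without Tdo2. For Pgrmc1 itself, -9.14 became -10.25 with 0.1 TPM and -10.44 on the scale of the authors' means.

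Over all genes, 141 were up and 35 down. There were 384 up and 395 down with limits of 25% up and 20% down, 62 and 17 with a minimum of 10 TPM, 280 and 70 with 0.1 TPM, 296 and 80 with the authors' means, and 118 down with falls at 1/1.4. Rises made up 80.1% of these calls, which became 54.4% with falls at 1/1.4 and 49.3% with limits of 25% up and 20% down. The cause of the other moves was not tested. Depth limits scarce genes such as Hdc, whose interval ran from -1.35 to 0.12 on 25 estimated reads in KO and 51 in WT. Variation from mouse to mouse was not measured.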

Other observations

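Enzymes of other amino acids, outside the pathways of the 9, moved little. Of 20 genes of branched-chain amino acid breakdown, 0 passed the fold rule and 15 lay above 0, with a median of 0.05. Bcat2, the mitochondrial transaminase that is scarce in hepatocytes, was highest at 0.31 (8.52 TPM in KO against 6.67 in WT, interval 0.09 to 0.69), and Ppm1k, the phosphatase that activates the branched-chain ketoacid dehydrogenase, was also at 0.31 (63.1 and 50.7 TPM, interval 0.27 to 0.38). Pcca, a subunit of propionyl-CoA carboxylase, was lowest at -0.10. Counting intervals lay above 0 for 10 of these 20 genes and below 0 for 0. Of the 1013 abundant genes (mean of 100 TPM or more), 35% had an interval above 0 and 24.1% one below 0. Many of the 20 are scarcer than those genes, so the shares are not of like genes.

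Of 8 methionine and cysteine genes, 0 passed the rule and 6 lay above 0, with a median of 0.02, from -0.15 for Cbs, which commits homocysteine to cysteine synthesis, to 0.12 for Bhmt2. Of 4 lysine genes, 0 passed, with a median of -0.01, from -0.14 for Aass, the enzyme that opens lysine breakdown, to 0.07 for Pipox. Of 12 amino acid transporters, 0 passed, with a median of -0.01. Slc7a2, a carrier of cationic amino acids, was lowest at -0.26 (200.3 TPM in KO against 239 in WT, interval -0.27 to -0.22), and Slc43a1, a carrier of branched-chain and aromatic amino acids, was highest at 0.33 at 4.25 TPM in KO. Over the 87 amino acid genes above the 1 TPM limit, the 9 enzymes left out, 52 lay above 0 and the median was 0.02.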
